A study of Homo sapiens with 4 samples.

Results

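DNA methylation is written, copied and removed by a small group of enzymes, and 10 of their genes were followed in MV4-11 cells after knockdown of the transcription factor IRF1. The genes were chosen by name: DNMT1, DNMT3A, DNMT3B, UHRF1, TET1, TET2, TET3, IDH1, IDH2 and TDG. All 10 had a row among the 23622 genes of the deposited table. MV4-11 is a human acute myeloid leukemia line with monocytic features. RNA sequencing covered 4 libraries in total. In 2 sh-NC libraries the cells carried the control hairpin; their labels read genotype WT and no treatment. In 2 sh-IRF1 libraries the cells carried a lentiviral short hairpin RNA against IRF1, labelled IRF1 knockdown. The study's methods place the hairpins in the pLKO.1 vector with puromycin selection, so a knockdown library is a selected pool and not a clone. The sources used here do not say which IRF1 hairpin each library carries, nor that libraries of a group came from separate cultures. The p-values thus measure the spread between these libraries, largely pooled over genes, which may be technical.

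DNMT3A and DNMT3B place new methyl groups on cytosines of CpG sites. DNMT1 copies the pattern to the new strand after replication, guided by UHRF1, which recognises hemimethylated CpG. The TET enzymes oxidise methylcytosine, and the glycosylase TDG cuts out the oxidised bases for repair. IDH1 and IDH2 make the alpha-ketoglutarate that TET enzymes need, and mutant forms of either make hydroxyglutarate, which inhibits them. DNMT3A, TET2, IDH1 and IDH2 are among the recurrently mutated genes of acute myeloid leukemia. The libraries measure transcript levels, and neither methylation nor metabolites were measured in them.

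The IRF1 targets of both hairpins are shown because they define the knockdown. They were read from the study's list of hairpins and placed by exact match to the canonical IRF1 transcript (GENCODE 44, GRCh38), 5′ to 3′.
sh-IRF1#1: gcaccagtgatctgtacaact
sh-IRF1#2: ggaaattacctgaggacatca
The sh-IRF1#1 target lies in exon 7, at chr5:132486284-132486304 on the minus strand, and the sh-IRF1#2 target in exon 8, at chr5:132485672-132485692 on the same strand. Both are in the coding sequence. The longest exact run that either target shares with the canonical transcript of any of the 10 genes is 10 bases, between sh-IRF1#2 and DNMT3A, and the runs otherwise spanned 6 to 9 bases.

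Values are normalized counts, the reads of a gene divided by 1 size factor per library. Libraries held 17635908 to 18695337 reads, with 3.92% to 4.51% from mitochondrial genes. IRF1 itself was at 785 and 738 in the control libraries and at 430 and 432 in the knockdown libraries, 56.6% of the control mean. Its log2 fold change lay between -0.86 and -0.78 in the 14 alternative fits, and IRF1 passed the test in each. Of its exonic bases, 22.9% are shared with genes on the opposite strand, and the use of strand in counting is not given in the sources used here. The tested set was 14120 genes. Among them limma, a linear model with a shared estimate of the spread, called 20.3% higher and 21.9% lower at a Benjamini-Hochberg adjusted p under 0.05 over all genes tested. With a log2 fold change beyond 0.5 as well, the minimum the study used, these shares were 8.27% and 7.56%. Since 42.2% of all tested genes passed, a call on one of the 10 genes is a common event in this comparison.

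All 10 genes passed the filter on low values. TET3 and IDH1 rose, DNMT3A and IDH2 fell, and DNMT1, DNMT3B, UHRF1, TET1, TET2 and TDG did not pass the test. That is 2 of 10 in each direction, near the 20.3% and 21.9% of all genes. The median log2 fold change was 0.0083 over the 10 genes and -0.0019 over all genes tested. Only DNMT3A passed with a log2 fold change beyond 0.5.

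**Figure D1:**
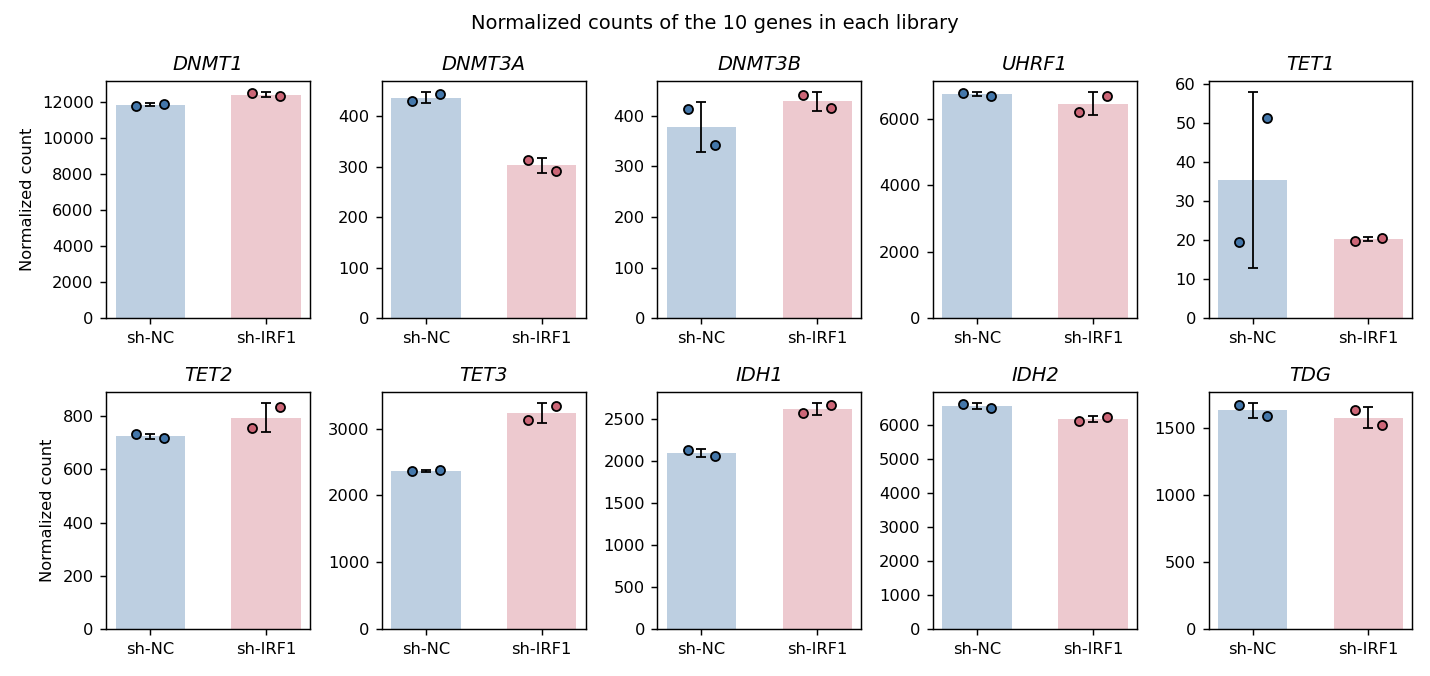
Normalized counts (vertical axes, each starting at 0) of the 10 genes in 2 sh-NC and 2 sh-IRF1 libraries; points are libraries, bars the group mean and lines the SD. The sh-IRF1 points of TET3, IDH1, DNMT1, DNMT3B and TET2 lie above both sh-NC points, and those of DNMT3A and IDH2 below both. The 2 groups overlap for UHRF1, TET1 and TDG, and 69.2% of all tested genes did not overlap.

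Among the genes that maintain methylation, DNMT1 was measured at 11805 and 11920 normalized counts in sh-NC and at 12518 and 12327 in sh-IRF1. Both knockdown libraries lay above both controls, by a small margin. The log2 fold change was 0.067 (SE 0.028), with a 95% confidence interval of 0.0095 to 0.12 and an adjusted p of 0.054. DNMT1 thus missed the threshold, and it passed in 5 of 14 alternative fits. UHRF1 gave 6780 and 6695 in sh-NC and 6205 and 6697 in sh-IRF1. The groups overlapped, since the second knockdown library matched the controls. Its log2 fold change was -0.064 (SE 0.035), with an interval of -0.14 to 0.0076 and an adjusted p of 0.15. Without the second sh-IRF1 library it was -0.12, with an adjusted p of 0.042. DNMT1 is at chr19:10133342-10231286 on the minus strand and UHRF1 at chr19:4903080-4962154 on the plus strand.

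The de novo methyltransferases did not move together. DNMT3A stood at 430 and 445 normalized counts in sh-NC and at 313 and 292 in sh-IRF1. Both knockdown libraries were below both controls, and the mean fell from 437 ± 10.6 to 303 ± 14.8 (SD, n = 2), to 69.3% of control. The log2 fold change was -0.53 (SE 0.11; 95% confidence interval -0.76 to -0.30), with an adjusted p of 0.00013 by limma. The gene passed in 14 of 14 alternative fits, with log2 fold changes between -0.58 and -0.48. Its change in absolute size exceeded that of 77.3% of the genes tested. DNMT3B, the other de novo enzyme, gave 412 and 342 in sh-NC and 441 and 415 in sh-IRF1. Its controls lay farther apart than its knockdown libraries, and the groups did not overlap, as was the case for 69.2% of all tested genes. The log2 fold change of DNMT3B was 0.19 (SE 0.11), with an interval of -0.036 to 0.41 and an adjusted p of 0.18. Without the first sh-NC library it was 0.32 with an adjusted p of 0.038, so this call depended on 1 library. In such a fit the group left with a single library is assumed to vary like the others. DNMT3A occupies chr2:25227855-25342590 on the minus strand and DNMT3B chr20:32762385-32809359 on the plus strand, and neither shares exonic bases with another gene.

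TET3 showed the clearest increase of the 10 genes. It stood at 2359 and 2377 normalized counts in sh-NC and at 3123 and 3339 in sh-IRF1. The controls were close to each other and both knockdown libraries lay above them. The mean rose from 2368 ± 12.3 to 3231 ± 153 (SD, n = 2), to 136% of control. The log2 fold change of TET3 was 0.45 (SE 0.046; 95% confidence interval 0.36 to 0.54), with an adjusted p of 2.1e-11 by limma. It passed in 14 of 14 alternative fits, at log2 fold changes from 0.40 to 0.50. In absolute size the change exceeded that of 71.5% of the genes tested. TET3 lies at chr2:73984910-74108176 on the plus strand. ENSG00000235499, on the same strand, shares 3.01% of its exonic bases. That gene held 68 and 60 reads in sh-NC and 92 and 122 in sh-IRF1. TET3 held 2300 and 2314 reads in sh-NC and 3140 and 3564 in sh-IRF1.

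TET2, the family member most often mutated in myeloid disease, was measured at 731 and 718 in sh-NC and at 755 and 833 in sh-IRF1. The groups did not overlap, but the knockdown libraries differed more from each other than the lower of them did from the controls. Its log2 fold change was 0.13 (SE 0.080), with an interval of -0.031 to 0.29 and an adjusted p of 0.19. TET2 passed in 0 of 14 alternative fits, and leaving out each library moved its log2 fold change between 0.059 and 0.20. TET1, a TET enzyme best known from embryonic stem cells, was low, with 19.5 and 51.4 normalized counts in sh-NC and 19.9 and 20.6 in sh-IRF1. One control library was far above the other, which matched the knockdown libraries. The controls held 19 and 50 reads of TET1 at nearly the same depth, and the interval of its log2 fold change ran from -1.49 to 0.25. Without the second sh-NC library the log2 fold change of TET1 turned from -0.62 to 0.053, and without the first it was -1.30 with an adjusted p of 0.019. TET2 is at chr4:105145875-105279816 and TET1 at chr10:68560337-68694487, both on the plus strand.

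The isocitrate dehydrogenases moved in opposite directions, with a much larger change in IDH1. IDH1, the cytosolic enzyme, gave 2132 and 2062 normalized counts in sh-NC and 2569 and 2672 in sh-IRF1. Both knockdown libraries lay above both controls. The mean rose from 2097 ± 48.9 to 2621 ± 72.8 (SD, n = 2), to 125% of control. The log2 fold change was 0.32 (SE 0.048; 95% confidence interval 0.22 to 0.42), the adjusted p was 2.7e-07, and IDH1 passed in 14 of 14 alternative fits. IDH2, the mitochondrial enzyme, gave 6606 and 6478 in sh-NC and 6105 and 6215 in sh-IRF1. The groups did not overlap, and the mean fell to 94.2% of control. Its log2 fold change was -0.087 (SE 0.034; interval -0.16 to -0.018), with an adjusted p of 0.036. This call ended with DESeq2 (adjusted p of 0.062), with scaling to total reads (adjusted p of 0.34), and without the first sh-NC library (0.14), the first sh-IRF1 library (0.22) or the second sh-IRF1 library (0.093). IDH1 lies at chr2:208236229-208266074 and IDH2 at chr15:90083045-90102477, both on the minus strand. The antisense gene IDH1-AS1 held 0.126% as many reads as IDH1.

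TDG, which removes the bases that TET enzymes oxidise, was measured at 1674 and 1595 normalized counts in sh-NC and at 1635 and 1524 in sh-IRF1. The groups overlapped. Its log2 fold change was -0.050 (SE 0.057), with an interval of -0.17 to 0.065 and an adjusted p of 0.52, and it passed in 0 of 14 alternative fits. The pseudogene TDGP1 had 0.976% as many reads. TDG is at chr12:103965822-103988874 on the plus strand.

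**Figure D2:**
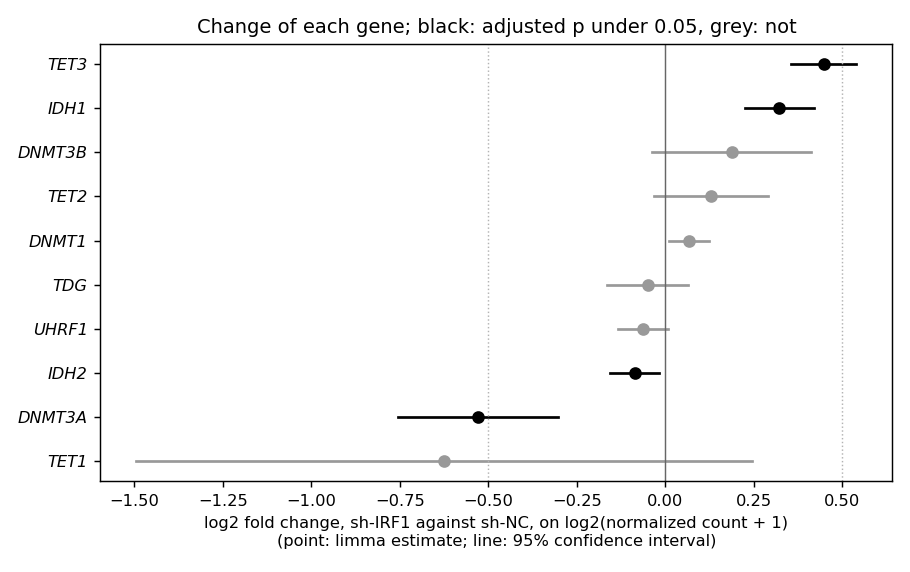
Change of the 10 genes in sh-IRF1 relative to sh-NC (horizontal axis, log2 fold change on log2 of the normalized count plus 1), in order of change; points are limma estimates, lines 95% confidence intervals, black where the adjusted p was under 0.05. The interval of TET3 runs from 0.36 to 0.54 and that of DNMT3A from -0.76 to -0.30, while that of TET1 runs from -1.49 to 0.25.

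To compare genes with one another, normalized counts were divided by the length of the canonical transcript in kilobases. On this scale the control means were 2461 for IDH2, 2249 for DNMT1 and 1728 for UHRF1. IDH1 followed at 905 per kilobase and TDG at 514. TET3 stood at 196 per kilobase, DNMT3B at 87.0, TET2 at 75.6 and DNMT3A at 46.4. TET1 was last, at 3.69. The order of neighbours was not tested, but the controls of DNMT3B (95.1 and 78.9 per kilobase) and of TET2 (76.3 and 74.9) came close to each other. The order also depends on the length used. Over the union of all annotated exons UHRF1 (1310 per kilobase) stood above DNMT1 (771). In sh-IRF1 libraries the order by canonical length changed at the top, with means of 2355 per kilobase for DNMT1 and 2317 for IDH2, whose libraries overlapped. Over the union of exons the control mean was 2347 per kilobase for IDH2, far above the 771 of DNMT1.

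**Figure D3:**
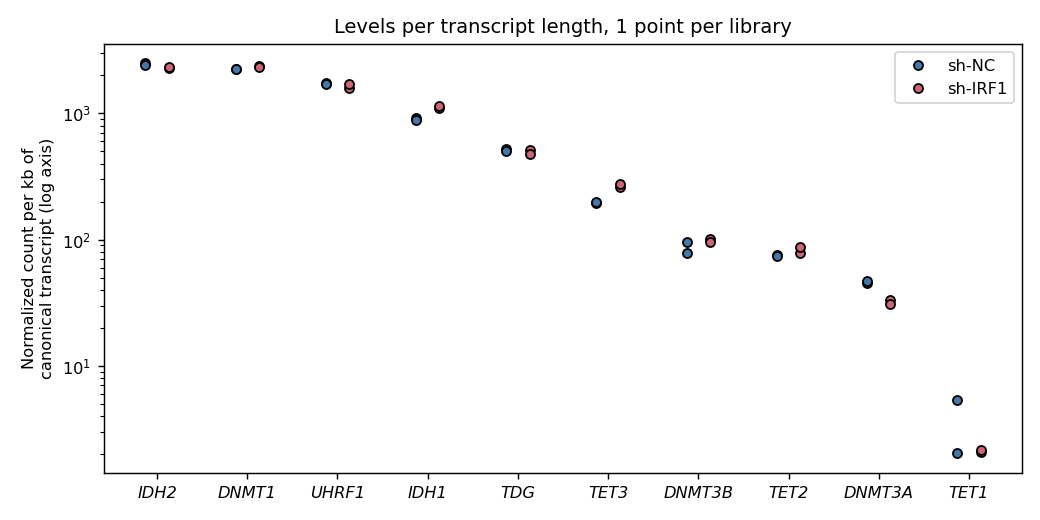
Normalized counts per kilobase of canonical transcript (vertical log axis) for the 10 genes, 1 point per library. Control means run from 2461 for IDH2 to 3.69 for TET1, and DNMT3A, at 46.4, is the lowest of the DNA methyltransferases.

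Per length, TET3 was the leading TET transcript in every library. It made up 71.4% and 71.1% of the summed TET level in sh-NC and 76.2% and 75.7% in sh-IRF1. The share of TET2 was 27.8% and 27.0% in sh-NC and 23.2% and 23.7% in sh-IRF1. TET1 held under 2% of the sum in every library. The sum itself was 274 and 277 per kilobase in sh-NC and 340 and 366 in sh-IRF1, higher in both knockdown libraries. DNMT1 accounted for 94.1% to 94.9% of the summed level of the DNA methyltransferases across the libraries, so a lower DNMT3A made little difference to that sum.

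Ratios between genes of one library do not depend on the size factor. The level of DNMT3A relative to DNMT3B, per length, was 0.480 and 0.598 in sh-NC and 0.327 and 0.324 in sh-IRF1. Relative to DNMT3A, TET3 stood at 4.29 and 4.17 in sh-NC and at 7.79 and 8.92 in sh-IRF1. IDH2 stood at 2.70 and 2.74 times IDH1 in sh-NC and at 2.07 and 2.03 times in sh-IRF1. In each of these 3 ratios the groups did not overlap, and the spread within a group was smaller than the gap. Each ratio holds a gene already called for its own change, so this separation is not further support. Of single tested genes, 69.2% did not overlap between the groups. The ratio of DNMT1 to UHRF1 was 1.29 and 1.32 in sh-NC and 1.49 and 1.36 in sh-IRF1. Here the groups did not overlap either, but the gap was smaller than the spread within sh-IRF1. These ratios are given as a description, since 2 libraries against 2 leave 0.33 as the smallest p of an exact permutation test (two-sided).

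Around the 10 genes, 14 partners of the writers and of maintenance were listed, of which 13 could be tested. Of these, 4 rose, 4 fell and 5 did not pass, with a median log2 fold change of -0.092. For this list and those that follow, the shares over all tested genes were 20.3% higher and 21.9% lower. LIG1, the ligase that joins newly replicated strands, had the smallest p of those that rose, going from 2986 and 2835 normalized counts in sh-NC to 3628 and 3736 in sh-IRF1 (log2 fold change 0.34, adjusted p of 5.9e-09). CDCA7, a partner of the remodeler HELLS needed for methylation of repeats, fell from 2101 and 2222 to 1591 and 1698 (log2 fold change -0.39, adjusted p of 3.2e-08). DNMT3L, the catalytically inactive partner of the de novo enzymes, had at most 3.08 normalized counts in any library and was left out by the filter.

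Of 10 genes for proteins of the methyl-CpG binding domain family and for zinc finger readers, not all of which bind methylated DNA, 2 rose (4 with scaling to total reads), 2 fell and 6 did not pass, with a median of 0.0023. ZBTB33, which encodes the zinc finger reader Kaiso, fell from 3099 and 3104 normalized counts in sh-NC to 1900 and 1931 in sh-IRF1 (log2 fold change -0.69, adjusted p of 3.8e-17). In this list, ZBTB33 alone passed with a change beyond 0.5.

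Base excision repair completes demethylation after TDG. The 12 base excision repair genes listed include glycosylases other than TDG and are not limited to that step. Of these 12, 5 rose, 2 fell and 5 did not pass, with a median log2 fold change of 0.025. The glycosylase gene NEIL3 rose from 650 and 592 normalized counts in sh-NC to 818 and 860 in sh-IRF1 (log2 fold change 0.43, adjusted p of 2.1e-05). UNG, which encodes the uracil glycosylase, fell from 1654 and 1621 to 1426 and 1416 (log2 fold change -0.20, adjusted p of 0.0030). Without the first sh-IRF1 library 3 genes rose and 1 fell, and 1 fell with DESeq2, with scaling to total reads, without the second sh-IRF1 library or without the first sh-NC library. Of 11 listed partners and regulators of TET enzymes, 8 were in the table and tested. With limma 0 rose (0 also at an unadjusted p under 0.05, and with edgeR and DESeq2), 3 fell and 5 did not pass, with a median of -0.15. With scaling to total reads 1 rose and 2 fell, and 2 fell with DESeq2 or without a filter. OGT, the glycosyltransferase that binds TET proteins, fell from 3039 and 2980 to 2448 and 2424 (log2 fold change -0.30, adjusted p of 2.1e-07).

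Genes of alpha-ketoglutarate and hydroxyglutarate metabolism, other than IDH1 and IDH2, were lower more often than higher. Of 19, 3 rose, 10 fell and 6 did not pass, and the median log2 fold change was -0.23. Of those that fell, 4 did so by more than 0.5. PSAT1, the aminotransferase of serine synthesis, fell from 14802 and 14982 normalized counts in sh-NC to 8126 and 8131 in sh-IRF1 (log2 fold change -0.87, adjusted p of 1.3e-28). BCAT1, the cytosolic branched-chain aminotransferase, fell from 7840 and 8450 to 4813 and 5102 (log2 fold change -0.72). GPT2, the mitochondrial alanine aminotransferase, fell from 6179 and 5939 to 3806 and 3714 (log2 fold change -0.69). GLUD1, glutamate dehydrogenase, fell from 5283 and 5357 to 3699 and 3735 (log2 fold change -0.52). The rise with the smallest p was that of OGDH, a subunit of the complex that consumes alpha-ketoglutarate in the tricarboxylic acid cycle, from 4059 and 4167 to 4631 and 4664 (log2 fold change 0.18, adjusted p of 0.00017).

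The S-adenosylmethionine cycle supplies the methyl groups used by all DNA methyltransferases. Of its 10 genes, 1 rose (2 with scaling to total reads or without the second sh-NC library), 5 fell and 4 did not pass, with a median of -0.24. MTRR, which reactivates methionine synthase, fell from 2448 and 2529 normalized counts in sh-NC to 1585 and 1528 in sh-IRF1 (log2 fold change -0.68, adjusted p of 2.4e-15). AHCYL2, a relative of the enzyme that clears S-adenosylhomocysteine, rose from 299 and 366 to 575 and 544 (log2 fold change 0.76, adjusted p of 9.4e-08). MAT2A and MAT2B, the subunits of the enzyme that makes S-adenosylmethionine outside the liver, were named after their values were seen. MAT2A fell from 5052 and 5168 to 3689 and 3691 (log2 fold change -0.47), and the opposite-strand gene GGCX overlaps 12.5% of its exonic bases. MAT2B fell from 1669 and 1624 to 1259 and 1255 (log2 fold change -0.39).

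**Figure D4:**
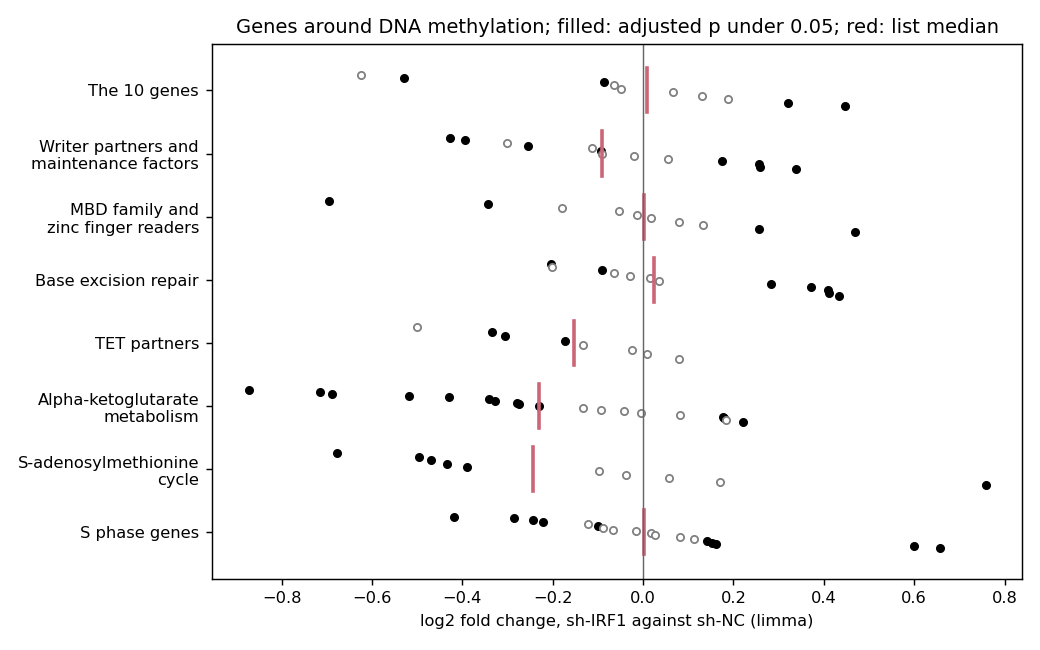
Change in sh-IRF1 relative to sh-NC (horizontal axis, log2 fold change) for each tested gene of 8 lists (rows); filled points had an adjusted p under 0.05 and red lines mark the list medians. The medians of the alpha-ketoglutarate list (-0.23) and the S-adenosylmethionine list (-0.24) lie left of 0, while that of the 10 genes (0.0083) lies near 0.

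DNMT1 and UHRF1 transcripts are known to be highest in S phase, so S phase genes were read beside them. Of 18, 5 rose, 5 fell and 8 did not pass, with a median of 0.0011. RRM2, a subunit of ribonucleotide reductase, rose from 2891 and 2813 normalized counts in sh-NC to 4422 and 4571 in sh-IRF1 (log2 fold change 0.66, adjusted p of 2.9e-18). CCNE2, cyclin E2, was at 231 and 224 in sh-NC and at 367 and 324 in sh-IRF1 (log2 fold change 0.60, adjusted p of 0.00015), but INTS8 and another gene of the opposite strand overlap 37.1% of its exonic bases. MCM6, a subunit of the replicative helicase, fell from 7063 and 6996 to 5313 and 5210 (log2 fold change -0.42, adjusted p of 3.0e-14). With scaling to total reads 8 rose and 3 fell, and 3 fell with DESeq2, without the first sh-NC library or without the second sh-IRF1 library.

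Among 17 germline genes that DNA methylation is known to silence in other cells, 4 were in the table and 1 could be tested. MAGEA4, a cancer-testis antigen, stood at 1440 and 1475 normalized counts in sh-NC and at 1369 and 1306 in sh-IRF1, with a log2 fold change of -0.12 and an adjusted p of 0.090. DAZL, DDX4 and MAEL had at most 5.13 normalized counts in any library. The other 13 were not analysed here.

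Markers were read to check the cells. All 13 myeloid markers were in the table and tested, and their summed level was 56482 and 55955 normalized counts in sh-NC and 55253 and 55506 in sh-IRF1. Of these markers 6 rose, 6 fell and 1 did not pass, beside 20.3% of all tested genes called higher and 21.9% called lower. With scaling to total reads 4 fell, and 5 fell with DESeq2 or without a filter. The summed level does not show these changes of single markers. LYZ, lysozyme, rose from 1824 and 1785 to 3276 and 3218, with 34.7% of its exonic bases shared with a gene on the opposite strand. The integrin gene ITGAM rose from 118 and 166 to 236 and 202. FLT3, the receptor kinase of progenitors, fell from 17391 and 17412 to 12745 and 12634. MPO, myeloperoxidase, fell from 477 and 443 to 185 and 158, and the Fc receptor gene FCGR1A fell from 1195 and 1278 to 821 and 840. CD14, the monocyte marker, fell from 38.0 and 42.1 to 10.9 and 1.87.

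Of 19 markers of lymphoid, erythroid, megakaryocytic, epithelial, endothelial and stromal cells, 6 were in the table and 5 were tested, of which 2 rose, 1 fell and 2 did not pass. Their sum moved with the group, from 2376 and 2676 normalized counts in sh-NC to 4461 and 4409 in sh-IRF1. Most of the increase in the sum came from PECAM1, an adhesion gene that myeloid cells also express, which rose from 1159 and 1399 to 3178 and 3120. NKG7, another listed marker, was also well detected, at 1061 and 1077 in sh-NC and at 1003 and 968 in sh-IRF1. It did not pass the test. CD79A, the B cell receptor subunit, rose from 50.3 and 43.1 to 190 and 250, and ITGA2B, the platelet integrin, fell from 69.8 and 83.2 to 40.8 and 32.8. The collagen gene COL1A1 was at 0 to 4.97. The part of these shifts in the changes of DNMT3A, TET3 and IDH1 was not tested. In bulk RNA, fewer cells with a transcript and less of it per cell cannot be told apart.

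The 250 bases before each annotated start were read for all 10 genes (RefSeq, GRCh38.p14), 22 windows in all. Motifs were searched on both strands: the paired IRF half-site GAAANNGAAA, the E-box CACGTG that MYC with MAX and other helix-loop-helix factors bind, and the E2F octamers TTTCCCGC, TTTGGCGC, TTTGCCGC and TTTCGCGC. The paired IRF site was in no window of the 10 genes, against 3.71% of 27305 genes. An E2F octamer was found for 1 gene, UHRF1, against 3.40% of genes. The E-box was in windows of 4 genes, DNMT3A, TET3, TET2 and TDG, against 7.73% of genes. Counted by window it was in 5 of 22, some of which overlap, against 6.34% of 35116. Of the genes with an E-box, 1 fell, 1 rose and 2 did not pass the test, beside 42.2% of all tested genes that passed in either direction.

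The windows of DNMT3A and TET3 are shown because these genes had the largest called changes of the set, in opposite directions, and both windows hold an E-box, in capitals.
DNMT3A: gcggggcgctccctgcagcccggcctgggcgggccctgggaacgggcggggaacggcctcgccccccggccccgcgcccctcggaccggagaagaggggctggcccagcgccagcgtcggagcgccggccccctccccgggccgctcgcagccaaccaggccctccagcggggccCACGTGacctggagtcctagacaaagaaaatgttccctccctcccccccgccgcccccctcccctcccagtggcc
TET3: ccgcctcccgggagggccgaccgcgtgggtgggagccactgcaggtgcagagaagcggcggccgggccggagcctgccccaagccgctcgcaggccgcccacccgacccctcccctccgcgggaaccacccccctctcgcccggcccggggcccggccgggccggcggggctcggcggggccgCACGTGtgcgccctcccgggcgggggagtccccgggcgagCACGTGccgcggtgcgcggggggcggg
The DNMT3A window is chr2:25252316-25252565 on the minus strand, before a start inside the gene, and its E-box begins 75 bases before that start. The TET3 window is chr2:73984660-73984909 on the plus strand, before the first base of the gene, and its E-boxes begin 67 and 27 bases before it. Neither window holds an annotated exonic base. GC content was 78.4% in the DNMT3A window, with 25 CpG sites, and 84.0% in the TET3 window, with 37. Of the 6 DNMT3A windows, 2 overlapping ones held the E-box, and the reads do not tell which start was used. A match describes the letters of a window and not the binding of a factor.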

How the data were processed

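RNA from MV4-11 cells was extracted with Trizol and libraries were made with a TruSeq RNA kit. Per the labels' processing notes, HISAT2 (2.0.5) and hg38 were used. The counting tool, annotation and use of strand are not given in the sources used here. The values the authors deposited are a normalized signal, in which all reads of a library are divided by the same size factor; 100% of values were whole multiples of the value of 1 read, to within 4.5e-05 of a read, so reads were recovered. The table held 0 other columns of per-sample values.

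The filter asked for 10 or more normalized counts in 2 or more libraries and left 14120 of 23622 genes. limma (3.58.1, R 4.3.3; trend, robust) was fitted to log2(value + 1), with Benjamini-Hochberg adjustment over all of them. Fold changes are on this scale, which understates changes of low genes. edgeR (4.0.16) and DESeq2 (1.42.0) on the recovered reads, other scalings, filters, pseudocounts, a replicate block and leaving out each library were alternatives. Scripts were tested on simulated data. Symbols matched 23456 of 23622 identifiers, and gene models came from GENCODE 44 on GRCh38.

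The members and lists were chosen with earlier results of these data known. Named were all 10 genes and IRF1. From each list the strongest call by p among higher and among lower genes was named. Every list gene past the test with a log2 fold change beyond 0.5 was named too. MAT2A, MAT2B, DNMT3L, COL1A1, NKG7, MAGEA4, DAZL, DDX4 and MAEL were named outside this rule, after their values were seen. Some genes that the rule names are not reported here. Over 10% of exonic bases shared with another gene marked a gene as uncertain. The counts of genes that rose or fell in the lists include such uncertain genes, most of them not flagged by name. Libraries of a group differed by more than sampling noise (mean chi-square per gene 2.93 in sh-NC and 2.47 in sh-IRF1).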

Additional observations from a re-analysis of the deposited data

How the results depend on the processing

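TET3, IDH1, DNMT3A and IRF1 kept their direction and their call in all 14 alternatives of scaling, filter, pseudocount, test, block and left-out library. The fits that leave out a library set 1 library against 2, and the lone library is assumed to vary like the other group. IDH2 was -0.087 on the log2 scale and not called with DESeq2 (adjusted p of 0.062) and -0.042 with scaling to total reads (0.34), and lay between -0.10 and -0.073 with each library left out. DNMT1 passed at 0.072 with edgeR (adjusted p of 0.047), at 0.067 without a filter (0.048) and at 0.11 with scaling to total reads (0.00094), which moved the median of all genes up by 0.045. With each library left out it lay between 0.055 and 0.078, DNMT3B between 0.052 and 0.32, UHRF1 between -0.12 and -0.0088, and TET1 between -1.30 and 0.053. The direction turned for TET1 (0.053 without the second sh-NC library) and TDG (0.0010 without the second sh-IRF1 library). The members called lower, 2 by limma, were 1 with DESeq2 and with scaling to total reads. They were 1 at a minimum log2 fold change of 0.5 and 0 at a minimum of 1. The members called higher were 0 at a minimum of 0.5 and 0 at a minimum of 1. Over all genes 1168 were higher and 1067 lower at 0.5, and 389 and 318 at 1. Why these values moved was not tested, beyond the stricter minimum itself. With a replicate block DNMT1 passed at 0.067 (adjusted p of 0.039 by limma). With this block 2903 genes were called higher and 3147 lower, against 2861 and 3092. Deviations of same-numbered libraries had a correlation of -0.015 over 14120 genes. This value cannot tell whether same-numbered libraries shared a culture or batch, since an effect on few genes would barely move it. With 2 libraries a group the spread of single genes is poorly known, and for TET1 the controls held 19 and 50 reads.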
